A study of Mus musculus with 6 samples.

Results

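Kupffer-like macrophages in which no Timd4 transcript was counted were taken from a single-cell RNA sequencing data set of livers of wild-type mice and mice lacking the histone deacetylase SIRT7. The cells were chosen by their measured transcripts. A cell was included when it held at least 3 of the 7 transcripts C1qa, C1qb, C1qc, Vsig4, Cd5l, Csf1r and Clec4f, with Csf1r or Clec4f among them, and when Timd4, Cd3e, Mzb1, Siglech and Xcr1 were all at 0. This rule selected 1282 of 11610 cells, called Timd4-zero cells here. Another 2103 cells passed the same gate with Timd4 above 0 and are called Timd4-positive cells.

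Livers came from 3 wild-type (WT) and 3 SIRT7-/- (SIRT7 KO) mice that were 5 to 6 months old, with no treatment or altered diet in the sample labels. Each liver was digested with collagenase, and hepatocytes and nonparenchymal cells were put together in equal numbers for a 10x Genomics 3' library, so a share of cells in a library is not a share of the liver. The control livers carry no SIRT7 deletion, and the mutant lacks SIRT7 in hepatocytes as well as in macrophages. Replicate means mouse throughout. Each level below, unless given as pooled over mice, is a mean over the cells of 1 mouse. It is in counts per 10000 unique molecular identifiers (UMIs) of a cell, CP10K.

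Kupffer cells are the resident macrophages of the liver sinusoids, where they take up bacteria, immune complexes, apoptotic cells and aged red cells from the blood. TIM-4, the product of Timd4, binds phosphatidylserine on apoptotic cells and is carried by Kupffer cells that were seeded in the embryo. Macrophages that arise later from blood monocytes can occupy the same niche, where they are known to acquire CLEC4F, a galactose-binding lectin of Kupffer cells, before TIM-4. SIRT7 is a nuclear and nucleolar NAD-dependent deacetylase.

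The Timd4-zero cells numbered 18, 19 and 93 in WT mice 1, 2 and 3 and 949, 173 and 30 in SIRT7 KO mice 1, 2 and 3. SIRT7 KO mouse 1 thus gave most of the cells, and WT mice 1 and 2 gave under 20 each. Their median depth was 2606, 1599 and 1929 UMIs per cell in WT and 1630, 2148 and 6041 in SIRT7 KO mice, from between 51953 and 1785339 UMIs per mouse. Over the whole data set a mouse contributed 2511947 to 11069411 UMIs. Of the barcodes, 13 occurred in more than 1 library, 2 of them among Timd4-zero cells.

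Timd4-zero cells carried 3 to 7 of the gate transcripts, most often all 7. All 7 gate transcripts were present in 588 cells, 6 in 267, 5 in 201, 4 in 164 and 3 in 62. Pooled over mice, the 62 cells just inside the threshold had mean levels of 4.57 CP10K for C1qa and 2.94 CP10K for Cd5l. The 152 cells just outside it, with 2 transcripts, had 0.663 and 2.44 CP10K, also pooled. Adgre1, the F4/80 antigen of mature macrophages and no part of the rule, averaged 8.58 CP10K over all Timd4-zero cells pooled over mice. Most of those cells were from SIRT7 KO mouse 1. Pooled likewise, Adgre1 averaged 1.65 CP10K in the cells just inside and 0.624 CP10K in those just outside. By mouse, Adgre1 in Timd4-zero cells averaged 6.52 CP10K, from 2.81 CP10K in WT mouse 1 to 9.21 CP10K in SIRT7 KO mouse 1. It was counted in 33.3% to 76.7% of Timd4-zero cells of a mouse and in 0% to 24.8% of T cells, which should lack it and whose median depth of 1747 to 3563 UMIs was similar. F4/80, which did not choose the cells, was thus present in them in every mouse.

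SIRT7 expression was too low in these cells to check the genotype. Sirt7 (GRCm38, chromosome 11, 120618372 to 120625240, minus strand) gave 0, 3 and 7 UMIs in Timd4-zero cells of WT mice and 17, 5 and 3 in those of SIRT7 KO mice. The corresponding levels were 0, 1.70 and 0.320 CP10K in WT and 0.1003, 0.103 and 0.187 CP10K in SIRT7 KO mice, which overlapped. Over all cells of a mouse, Sirt7 lay between 0.512 and 0.718 CP10K in WT and between 0.0814 and 0.139 CP10K in SIRT7 KO mice. Its chromosomal neighbour Pcyt2 (120610087 to 120617936), an enzyme of phosphatidylethanolamine synthesis, was at 0.574, 1.26 and 0.514 CP10K in Timd4-zero cells of WT mice. In SIRT7 KO mice Pcyt2 was at 0.0221, 0.0660 and 0 CP10K, below every WT mouse, with a log2 fold change of -3.37 ± 0.80 (SE, limma adjusted p = 0.165).

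The share of Kupffer-gated cells without Timd4 did not differ detectably between the genotypes. It was 31.6%, 41.3% and 44.1% in WT mice and 38.6%, 33.0% and 34.9% in SIRT7 KO mice. The means were 39.0% ± 6.56 (SD, n = 3) and 35.5% ± 2.86 (SD, n = 3), a difference of -3.52 percentage points (exact permutation test, two-sided, p = 0.5, where 0.1 is the smallest p that 3 mice against 3 allow). A Timd4 count of 0 depended on how deeply the cell was sequenced. Among gated cells under 1500 UMIs, 60.0% to 80.0% lacked Timd4, against 19.6% to 35.1% of cells with 3000 UMIs or more. When every cell was thinned to 1000 UMIs, leaving out 1751 shallower cells, the means were 62.7% ± 2.56 and 62.2% ± 6.38 (SD, n = 3 each, exact permutation test, p = 0.9). A Timd4 count of 0 thus does not show that a cell lacked the transcript, and the median depth of Timd4-zero cells was below that of Timd4-positive cells in every mouse (2289 to 6921 UMIs in the latter).

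**Figure D1:**
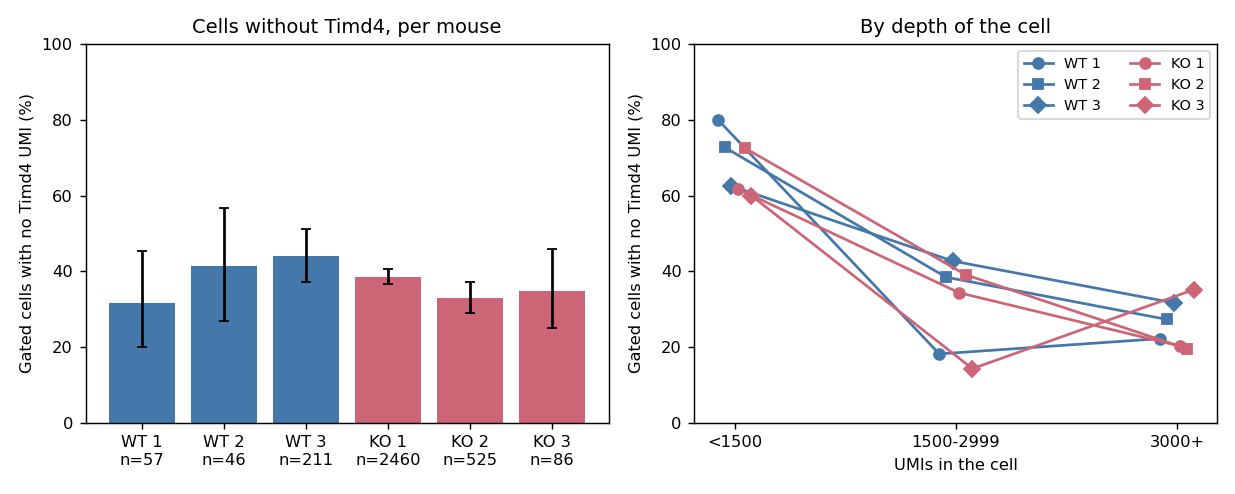
The left panel shows the percentage of Kupffer-gated cells with no Timd4 UMI in each mouse, with n gated cells and exact (Clopper-Pearson) 95% binomial intervals that cover counting error only. The right panel shows the same percentage in gated cells under 1500, 1500 to under 3000, and 3000 or more UMIs, with 1 line per mouse. The share went from 60.0% to 80.0% in the shallowest cells to 19.6% to 35.1% in the deepest.

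As a share of all cells of a library, Timd4-zero cells were 1.45%, 2.04% and 8.50% in WT and 16.9%, 7.94% and 5.43% in SIRT7 KO mice. The means of 4.0% ± 3.91 and 10.1% ± 6.04 (SD, n = 3 each) differed by 6.10 percentage points, within the spread between mice (exact permutation test, two-sided, p = 0.3). WT mouse 3 lay above SIRT7 KO mice 2 and 3. The difference was 2.69 percentage points without SIRT7 KO mouse 1 and 11.9 with cells thinned to 1000 UMIs and gated anew. The thinned value is of another set of cells, with shallower cells left out. SIRT7 KO mouse 1 then had 1329 Timd4-zero cells in place of 949.

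The Timd4-zero cells were not uniform, and whether Clec4f was counted separated them along many genes. Clec4f was present in 50.0%, 68.4% and 68.8% of Timd4-zero cells in WT and in 78.1%, 63.0% and 43.3% in SIRT7 KO mice, compared with 88.9% to 95.5% of Timd4-positive cells and 0% to 24.3% of T cells. Cells with Clec4f carried more transcripts of 18 of 33 Kupffer identity genes and of some iron, complement and lysosome genes. Cells without it carried more transcripts of Cx3cr1 and of 5 of 13 MHC class II genes. Of 10035 genes tested within the 4 mice that had 10 or more cells of each kind (WT mouse 3 and the 3 SIRT7 KO mice), 270 passed an adjusted p of 0.05 (2.69%), 155 of them higher (1.54%) and 115 lower (1.15%) in cells with Clec4f (limma with mouse as a term). The median log2 fold change of all genes was 0.19. Cells without Clec4f were the deeper ones in 3 of these mice. Median UMIs in cells without and with Clec4f were 2320 and 1613.5 in WT mouse 3, 1625.5 and 1640 in SIRT7 KO mouse 1, 2493.5 and 1985 in SIRT7 KO mouse 2, and 6349 and 4420 in SIRT7 KO mouse 3.

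The gate genes are given as a description, since they chose the cells. A cell without Clec4f had to carry Csf1r, the receptor of the macrophage growth factor CSF1, which was at 9.68, 12.9, 11.2 and 8.59 CP10K without Clec4f and at 9.77, 11.5, 8.98 and 10.9 CP10K with it, in WT mouse 3 and SIRT7 KO mice 1, 2 and 3. Vsig4, a complement receptor that captures bacteria, was at 1.47, 2.17, 0.116 and 0 CP10K without Clec4f and at 11.4, 22.5, 12.3 and 21.1 CP10K with it. Cd5l, a secreted scavenger protein, was at 7.9, 18.8, 7.14 and 5.65 CP10K without Clec4f and at 47.4, 54.0, 47.3 and 42.5 CP10K with it. Cells with Clec4f could enter without Csf1r and cells without Clec4f could not, so the 2 Csf1r levels cannot be compared. Vsig4 and Cd5l were lower without Clec4f in each of these mice, and as gate genes they too helped to choose the cells.

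Kupffer identity genes outside the rule were mostly higher with Clec4f. Of the 33 tested, 18 were higher past the threshold and none lower, with a median log2 fold change of 1.17. Of all genes, 1.54% were higher and 1.15% lower past it, the shares to set beside this list and those below. Cd163, the haptoglobin-hemoglobin scavenger receptor, was at 1.055, 3.0, 0.806 and 2.37 CP10K in cells with Clec4f of WT mouse 3 and SIRT7 KO mice 1, 2 and 3. In cells without Clec4f, Cd163 was at 0, 0.207, 0 and 0 CP10K, and the log2 fold change was 4.43 ± 0.51 (SE, n = 4, limma adjusted p = 0.000117) on a scale with 0.05 CP10K added. No mouse overlapped between the kinds of cells.

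Marco, a scavenger receptor for bacteria, was at 2.55, 1.23, 3.38 and 2.001 CP10K with Clec4f and at 0, 0.207, 0 and 0.140 CP10K without it (log2 fold change 4.39, adjusted p = 0.000227 by limma). Folr2, folate receptor beta, was at 5.54, 6.08, 3.62 and 4.72 CP10K against 0.233, 1.24, 0.203 and 0.150 CP10K (3.75, limma adjusted p = 1.56e-05). Fcna, a ficolin that recognises microbial sugars, averaged 9.89 CP10K ± 1.69 against 1.32 ± 1.58 (SD, n = 4). For each of these genes the cells without Clec4f of SIRT7 KO mouse 1 had the highest level among cells without Clec4f, still below every value with it. Slc40a1, the iron exporter ferroportin, kept a clear level in both kinds of cells, at 30.6 ± 2.07 and 8.30 ± 3.67 CP10K (SD, n = 4).

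Other identity genes higher with Clec4f included Cdh5, Sdc3, Fabp7, Paqr9, Kcna2, C6, Vcam1, Il18bp, Lpl, Nr1h3, Cfp and Adgre1, with log2 fold changes from 3.22 for Cdh5 and 4.18 for C6 to 0.92 for Nr1h3. Nr1h3 encodes the oxysterol receptor LXRα. Adgre1 averaged 8.85 ± 0.99 against 4.51 ± 0.90 CP10K, a log2 fold change of 0.98 (limma adjusted p = 0.00267). Cells without Clec4f therefore still carried the transcript of F4/80 at a lower level.

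Among the 12 genes with the largest increases with Clec4f were also Cxcl13, Pmp22, Gfra2, Pcolce2, Crip2 and Epb41l3. Cxcl13, a chemokine that attracts B cells, was at 1.69, 1.56, 1.34 and 0.838 CP10K with Clec4f and at 0, 0.123, 0 and 0 CP10K without it. Gfra2, a receptor of the GDNF family, was at 1.74, 1.21, 0.773 and 1.08 CP10K against 0, 0.162, 0.0362 and 0 CP10K. The 6 genes were higher in all 4 mice, but in SIRT7 KO mouse 3 this rested on 1 UMI for Cxcl13 and 2 UMIs for Gfra2.

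MHC class II genes moved the other way. Of 13 measured members of the presentation list, 5 were lower with Clec4f past the threshold (H2-Aa, H2-Ab1, H2-Eb1, H2-DMb1 and Ciita) and none was higher, with a list median of -0.82. At an unadjusted p under 0.05, 7 of the 13 were lower, where 4.32% of all genes were. H2-Eb1, a beta chain that presents peptides to CD4 T cells (GRCm38, chromosome 17, 34305867 to 34316674, plus strand), was at 33.7, 29.6, 32.9 and 19.4 CP10K with Clec4f. Without Clec4f it was at 77.0, 74.1, 93.8 and 97.0 CP10K, above every value with Clec4f, and the log2 fold change was -1.59 ± 0.14 (SE, limma adjusted p = 1.56e-05). H2-Aa, an alpha chain (34282744 to 34287823, minus strand), averaged 39.9 ± 12.5 and 76.0 ± 11.3 CP10K (SD, n = 4, -0.97, limma adjusted p = 0.0392). Ciita, the transactivator that MHC class II promoters need, averaged 0.946 ± 0.311 and 2.74 ± 0.506 CP10K (SD, n = 4, -1.53, limma adjusted p = 0.00256). Cd74, the invariant chain, had the highest level of the list and just missed the threshold, at 79.0 ± 14.7 and 201 ± 54.1 CP10K (-1.33, limma adjusted p = 0.05004).

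MHC class II promoters are read through conserved boxes just before the start site, the last of which is a CCAAT box bound by NF-Y. The 160 bases before the start of H2-Aa and H2-Eb1 are shown because both genes moved together with Ciita. They come from RefSeq on GRCm38.p6 and are written 5' to 3' on the strand of the gene, and capitals mark CCAAT or its reverse complement ATTGG. H2-Aa lies at chr17:34287824-34287983, minus strand, and H2-Eb1 at chr17:34305707-34305866, plus strand.
H2-Aa: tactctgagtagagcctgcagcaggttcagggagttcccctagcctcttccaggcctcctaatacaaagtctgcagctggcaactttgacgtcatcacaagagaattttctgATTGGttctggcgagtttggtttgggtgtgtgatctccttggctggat
H2-Eb1: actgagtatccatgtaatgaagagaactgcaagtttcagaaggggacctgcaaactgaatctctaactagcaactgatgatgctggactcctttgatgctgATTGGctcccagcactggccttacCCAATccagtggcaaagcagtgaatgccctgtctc
H2-Aa held 1 match and H2-Eb1 held 2. CCAAT on either strand occurred in 8404 of 32851 promoter windows of the same length (25.6%), and a match describes the letters only. H2-Ab1 had no entry in the table of promoters.

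Monocyte genes leaned lower with Clec4f. Of 24 tested, Cx3cr1, Lyz2, Ifitm3 and Ms4a4c were lower and Klf2, a shear-responsive transcription factor, was higher, with a list median of -0.65. At an unadjusted p under 0.05, 10 were lower and 1 higher, where 4.32% and 10.4% of all genes were. Ccr2 did not pass, at 2.87, 0.610, 2.48 and 0 CP10K with Clec4f and 8.99, 4.07, 6.58 and 4.74 CP10K without it. Cx3cr1, the fractalkine receptor, was at 0.444, 0.261, 0.231 and 0 CP10K with Clec4f and at 2.68, 2.74, 1.89 and 2.54 CP10K without it (log2 fold change -3.53 ± 0.47, SE, limma adjusted p = 0.000272). Ly6c2, which marks classical blood monocytes, averaged 0.392 ± 0.331 and 0.549 ± 0.607 CP10K (SD, n = 4, limma adjusted p = 0.805), while cells gated as monocytes, which Ly6c2 helped to choose, had 9.21 to 18.3 CP10K in these mice.

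The 12 genes with the largest decreases with Clec4f were Fcgr2b, Cd93, Cx3cr1, the lincRNA Gm34084, the class I gene H2-M2, Sirpb1c, Sirpb1b, Gpr141, H2-DMb2, Ccl5, Ms4a7 and Cyp4f18. Fcgr2b, the inhibitory IgG receptor, was at 0.0782, 0.114, 0.105 and 0 CP10K with Clec4f and at 1.41, 1.03, 2.48 and 2.06 CP10K without it (-3.92 ± 0.49, SE, limma adjusted p = 0.000176). Cd93, a C-type lectin-like receptor, was at 0.124, 0.146, 0.28 and 0 CP10K against 2.11, 0.942, 2.88 and 1.93 CP10K. No value with Clec4f reached a value without it for either gene. Fcgr2b is also abundant in sinusoidal endothelium. The summed level of 12 endothelial markers was 1.95, 2.995, 2.46 and 2.03 CP10K with Clec4f in WT mouse 3 and SIRT7 KO mice 1, 2 and 3. Without Clec4f it was 10.2, 4.79, 4.90 and 3.23 CP10K. Fcgr2b is 1 of the 12 and gave 1.41, 1.03, 2.48 and 2.06 CP10K of the sums without Clec4f. That was a large part in SIRT7 KO mice 2 and 3, so the sum is not separate evidence on Fcgr2b. The part of endothelial RNA in these results was not tested. Of 11 endothelial markers tested, 2 had a log2 fold change above 0, with a list median of -1.04. At an unadjusted p under 0.05, 4 were lower and 1 higher, where 4.32% and 10.4% of all genes were. The 14 T and NK cell markers, Ccl5 among them, summed to 10.1, 6.34, 8.70 and 0.200 CP10K without Clec4f and to 0.561, 4.46, 4.66 and 0 CP10K with it, higher without Clec4f in all 4 mice, and their part was not tested either. Ccl5 itself was at 3.73, 3.06, 4.38 and 0.130 CP10K without Clec4f and at 0.157, 1.42, 0.750 and 0 CP10K with it. The 10 dendritic cell markers summed to 2.79 to 10.0 CP10K with Clec4f and 3.15 to 7.81 CP10K without it. Bst2, an interferon-stimulated gene, is 1 of the 10. Over all Timd4-zero cells of a mouse Bst2 was at 2.26 to 7.68 CP10K, most of a dendritic sum of 2.90 to 9.22 CP10K. The sum is thus mainly the level of Bst2, and the part of dendritic cell RNA was not tested. Sirpb1b and Sirpb1c are near-identical copies, so their counts are uncertain.

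**Figure D2:**
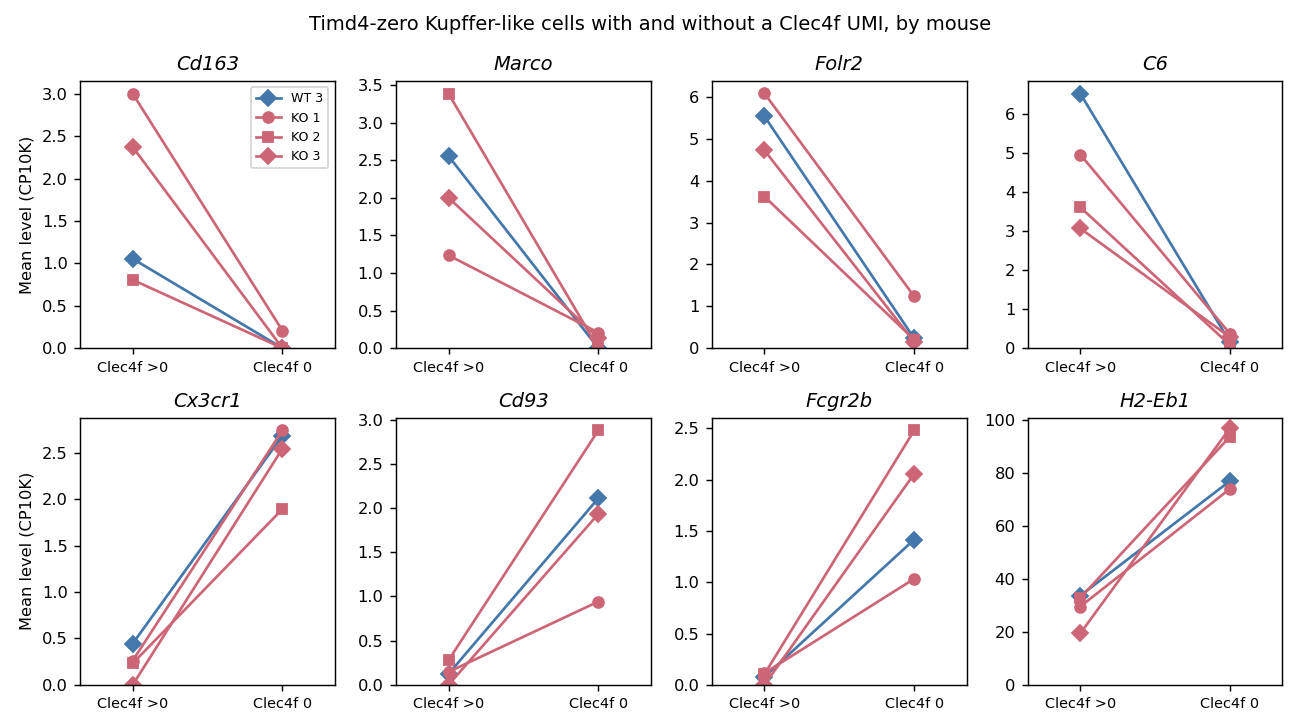
Each panel shows the mean level in CP10K of 1 gene in Timd4-zero cells with and without a Clec4f UMI, with a line for each of the 4 mice compared. Cd163, Marco, Folr2 and C6 were higher with Clec4f and Cx3cr1, Cd93, Fcgr2b and H2-Eb1 were higher without it in all 4 mice, with no overlap.

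Some genes of iron and lipid handling and of the lysosome were higher in cells with Clec4f, while most members of these lists did not pass the threshold. Of 17 iron and heme genes, Slc40a1, Hmox1, Cd163 and Ncoa4 were higher and none was lower. Hmox1, the enzyme that opens the heme ring, was at 12.2, 13.6, 16.5 and 13.6 CP10K with Clec4f and at 3.65, 6.88, 1.99 and 1.45 CP10K without it (log2 fold change 2.23 ± 0.32, SE, limma adjusted p = 0.00283). The cells with Clec4f were thus alike in Hmox1 and all above the others.

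Of 28 cholesterol and lipid genes, Abca1, Abcg1, Nr1h3, Soat1, Lpl, Cd36 and Scd1 were higher with Clec4f and Apoe was lower, with a median of 0.54. Abca1 and Abcg1 export cholesterol, and Abca1 averaged 3.73 ± 0.277 CP10K with Clec4f and 1.38 ± 0.561 CP10K without it (SD, n = 4). Apoe was at 48.8, 138, 36.5 and 37.7 CP10K with Clec4f and at 51.0, 170, 49.4 and 60.5 CP10K without it, a log2 fold change of -0.37 (limma adjusted p = 0.0470). SIRT7 KO mouse 1 stood above the other mice in Apoe in both kinds of cells.

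Of 30 lysosome genes, 8 were higher with Clec4f and none was lower. Lgmn, an asparaginyl endopeptidase, had the smallest p of them, at 41.9, 25.8, 40.6 and 30.7 CP10K with Clec4f and 9.41, 9.90, 8.20 and 8.04 CP10K without it (1.94 ± 0.14, SE, limma adjusted p = 3.14e-06). The others were Ctsb, Ctsd, Ctsa, Lamp1, Lamp2, Grn and Atp6v1a. Lysosomal transcripts were present in both kinds of cells, and Ctsb averaged 46.1 ± 4.71 and 24.7 ± 6.05 CP10K (SD, n = 4).

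In the complement list, C2, C4b, C6 and Cfp were among the genes higher with Clec4f and the integrin Itgax was lower, of 14 tested. C6, a component of the membrane attack complex, was at 6.51, 4.95, 3.60 and 3.06 CP10K with Clec4f and at 0.149, 0.365, 0.0763 and 0.278 CP10K without it. Of the uptake receptors, Mertk, Stab2, Mrc1, Cd36 and Lrp1 were higher, of 20 tested. Mertk, which bridges to apoptotic cells, averaged 2.87 ± 0.373 and 1.27 ± 0.326 CP10K (SD, n = 4, 1.18, limma adjusted p = 0.0131). In the chemokine list Cxcl13, Ccl6 and Ccl24 were higher and Ccl5 was lower, of 20 tested.

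Lipid-associated macrophage genes, a program described around lipid-laden cells, were divided, with 5 of 25 higher and 3 lower and a median of 0.03. Cd36, Mmp12, Ctsd, Ctsb and Ccl24 were higher with Clec4f and Lgals1, Itgax and Apoe were lower. Among 25 cycling genes and 5 sirtuins tested, none passed the threshold. Of 25 interferon-stimulated genes only Ifitm3 passed, and of 23 ER stress and integrated stress response genes Hsp90b1 was higher and Sdf2l1 lower. Of 25 immediate-early genes Klf2 and Dusp1 were higher.

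The count of 270 genes was 80 with no filter on low values, 418 with voom weights, 114 without WT mouse 3 and 171 without SIRT7 KO mouse 2. With each cell thinned to 1000 UMIs and gated anew it was 47, of which 14 were higher and 33 lower and 46 were among the 270. WT mouse 3 was the only WT mouse in this comparison, so these differences are mainly those of SIRT7 KO livers. Where a gene is at or near 0 in 1 kind of cell the added constant sets the size, and over the alternatives the log2 fold change ran from 1.96 to 4.72 for Cd163, 2.21 to 5.08 for Marco, 1.79 to 4.69 for Cxcl13 and -3.89 to -2.04 for Cx3cr1.

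Compared with Timd4-positive cells of the same mouse, Timd4-zero cells had more Ccr2 and less Wfdc17 and Folr2. Of 10009 genes tested these 3 passed the threshold (0.03%), 1 higher (0.00999%) and 2 lower (0.02%), and 879 had an unadjusted p under 0.05 (8.78%, limma with mouse as a term, 6 mice). Ccr2, the receptor that draws monocytes out of the bone marrow, was at 4.85, 0.758 and 4.78 CP10K in Timd4-zero cells of WT mice and at 1.37, 3.99 and 2.69 CP10K in those of SIRT7 KO mice. In Timd4-positive cells, Ccr2 was at 0.562, 0.271 and 1.08 CP10K in WT and 0.519, 0.873 and 0.468 CP10K in SIRT7 KO mice. It was higher in Timd4-zero cells in 6 of 6 mice, with a log2 fold change of 2.05 ± 0.24 (SE, limma adjusted p = 0.00430).

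Wfdc17, a secreted protein of the whey acidic protein family, averaged 29.7 ± 8.92 CP10K in Timd4-zero and 59.6 ± 8.07 CP10K in Timd4-positive cells (SD, n = 6; log2 fold change -1.05 ± 0.13, SE, limma adjusted p = 0.00526). Folr2 averaged 2.87 ± 1.30 and 7.12 ± 1.72 CP10K (SD, n = 6, -1.37 ± 0.20, SE, limma adjusted p = 0.0181). Both genes were lower in Timd4-zero cells in 6 of 6 mice. Cx3cr1, Fcna and Cfp, named after their values were seen, came next and did not pass. Cx3cr1 averaged 1.15 ± 0.284 and 0.325 ± 0.142 CP10K (SD, n = 6, 1.75, limma adjusted p = 0.0571).

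The Ccr2 difference did not pass among cells with Clec4f and varied between mice there. Timd4-zero cells with Clec4f had Ccr2 at 0, 0.28 and 2.87 CP10K in WT and at 0.610, 2.48 and 0 CP10K in SIRT7 KO mice. The levels given above for Timd4-positive cells are of all such cells, with and without Clec4f. Set beside those, WT mouse 3 and SIRT7 KO mouse 2 were clearly above and WT mouse 2 and SIRT7 KO mouse 1 slightly above. WT mouse 1 and SIRT7 KO mouse 3 were below. When only cells with Clec4f were compared between Timd4-zero and Timd4-positive cells, which was added after the data had been seen and left 5 mice, the log2 fold change of Ccr2 was 0.17 (limma adjusted p = 0.955), that of Wfdc17 -0.61 (0.479) and that of Folr2 -0.71 (0.83), and 0 of 10004 genes passed, with 453 at an unadjusted p under 0.05. No gene passed when cells were thinned to 1000 UMIs, with no filter on low values, or without SIRT7 KO mouse 3, and 155 passed with voom weights and 17 without SIRT7 KO mouse 1.

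**Figure D3:**
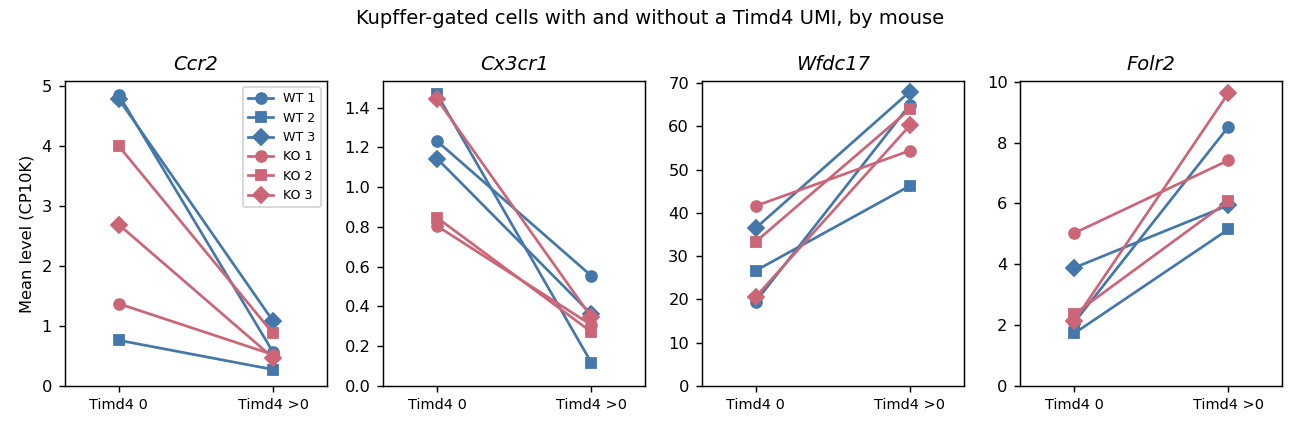
Each panel shows the mean level in CP10K of Ccr2, Cx3cr1, Wfdc17 or Folr2 in Kupffer-gated cells with no Timd4 UMI and with at least 1, with a line for each of the 6 mice. Ccr2 and Cx3cr1 were higher and Wfdc17 and Folr2 lower in Timd4-zero cells in 6 of 6 mice.

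Over the lists, Kupffer identity genes had a median log2 fold change of -0.55 in Timd4-zero cells against -0.09 for all genes, and 20 of 33 were lower at an unadjusted p under 0.05, where 5.6% of all genes were lower. In every mouse 15 of the 33 were lower and 1 was higher, where 3.83% and 2.24% of all genes were. Adgre1 averaged 6.52 ± 2.12 and 10.2 ± 1.28 CP10K in Timd4-zero and Timd4-positive cells (SD, n = 6, -0.71, limma adjusted p = 0.136), lower in 6 of 6 mice. Of 24 monocyte genes, 10 were higher and 2 lower at that p, where 3.18% of all genes were higher, with a median of 0.40. Lyz2, the most abundant of them, stood at 37.9 ± 6.90 and 37.4 ± 9.43 CP10K (SD, n = 6). The MHC class II list had a median of 0.31, and H2-Eb1 averaged 49.1 ± 8.78 and 31.6 ± 6.15 CP10K (SD, n = 6, 0.64, limma adjusted p = 0.109). Hepatocyte markers also had a higher median here, at 0.52, with a summed level of 21.0 to 321 CP10K in Timd4-zero and 21.9 to 153 CP10K in Timd4-positive cells, and their part in these results was not tested. The endothelial markers had a median of 0.92, with 5 of 11 higher and 0 lower at an unadjusted p under 0.05, and their part was not tested.

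Values were set beside those of cells gated as monocytes (Ly6c2 and Ccr2 above 0 and fewer than 3 gate transcripts), which were 189 in all and at least 13 in each of the 4 mice compared above. Because Ccr2 and Ly6c2 chose these cells, their levels are not compared. Lyz2, the lysozyme of myeloid cells, averaged 129 ± 15.7 CP10K in monocyte-gated cells, 55.2 ± 10.8 in Timd4-zero cells without Clec4f, 27.4 ± 11.7 in Timd4-zero cells with Clec4f and 40.3 ± 8.63 in Timd4-positive cells (SD, n = 4). S100a6, a calcium-binding protein, averaged 29.6 ± 3.60, 3.06 ± 1.38, 1.61 ± 1.03 and 0.836 ± 0.444 CP10K in the same order. The means of these 2 genes in Timd4-zero cells without Clec4f lay between those of monocyte-gated cells and the others. The same held for Ms4a4c, with means of 6.92, 2.26, 0.726 and 0.547 CP10K in the same order. It also held for S100a4, with means of 12.8, 1.01, 0.562 and 0.231 CP10K. Plac8 means were 33.5, 4.32, 3.36 and 4.21 CP10K, so cells without Clec4f were barely above Timd4-positive cells. Chil3, F13a1 and Cx3cr1 did not follow that order. Cx3cr1 averaged 1.64 CP10K in monocyte-gated cells and 2.46 CP10K in Timd4-zero cells without Clec4f. Chil3, a chitinase-like protein, averaged 3.68 ± 2.62, 0.199 ± 0.346, 0.28 ± 0.329 and 0.101 ± 0.168 CP10K, and F13a1, a coagulation factor, averaged 3.70 ± 2.67, 0.0634 ± 0.1003, 0.0868 ± 0.0870 and 0.186 ± 0.288 CP10K.

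H2-Eb1 averaged 21.8 ± 15.2 CP10K in monocyte-gated cells, 85.5 ± 11.6 in Timd4-zero cells without Clec4f, 28.9 ± 6.54 in those with Clec4f and 31.3 ± 7.30 in Timd4-positive cells (SD, n = 4). Cd93 averaged 0.756 ± 0.0959, 1.97 ± 0.797, 0.138 ± 0.115 and 0.163 ± 0.0664 CP10K. Both were highest in Timd4-zero cells without Clec4f in each of the 4 mice. Apoe, at 13.8 ± 4.83 CP10K in monocyte-gated cells and 82.7 ± 58.3 CP10K in Timd4-zero cells without Clec4f, and Folr2, at 0.0297 ± 0.0595 and 0.456 ± 0.522 CP10K, complete the comparison. These levels are a description with no test.

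Between the genotypes, no gene of the Timd4-zero cells passed the threshold. Of 9928 genes tested, 0 (0.0%) had an adjusted p under 0.05 and 669 (6.74%) had an unadjusted p under 0.05, 351 higher (3.54%) and 318 lower (3.2%) in SIRT7 KO mice (limma). With limma's voom weights 6 genes passed. Genes of which every SIRT7 KO mouse lay above every WT mouse were 745 (7.5%), and 570 (5.74%) lay below. The median log2 fold change of all genes was 0.15, and -0.22 with voom weights. In simulated data of this comparison, limma found 77% of genes changed by 3 on the log2 scale and 16% of those changed by 1.5, so most changes of the smaller size would be missed. Without SIRT7 KO mouse 1 the count was 84, without SIRT7 KO mouse 2 it was 33, without SIRT7 KO mouse 3 it was 10, and with every cell thinned to 1000 UMIs it was 47.

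The 5 genes with the smallest p among those higher in SIRT7 KO mice, among genes that reached 0.5 CP10K there and did not overlap, were Vcam1, BC018473, Ctsd, Lipa and Ms4a7. None passed. Vcam1, an adhesion molecule that Kupffer cells carry, was at 0.708, 0.907 and 1.54 CP10K in WT and at 7.70, 3.88 and 4.19 CP10K in SIRT7 KO mice, a log2 fold change of 2.27 ± 0.39 (SE, limma adjusted p = 0.0560). Ctsd, the lysosomal protease cathepsin D, was at 8.15, 5.15 and 8.17 CP10K in WT and at 26.6, 20.2 and 14.8 CP10K in SIRT7 KO mice (1.51 ± 0.28, SE, limma adjusted p = 0.0580). Lipa, lysosomal acid lipase, which frees cholesterol and fatty acids from lipoprotein lipid, was at 1.26, 1.12 and 2.30 CP10K against 5.68, 4.90 and 5.26 CP10K (1.80 ± 0.35, SE, limma adjusted p = 0.0580). The lowest SIRT7 KO mouse was above the highest WT mouse by a clear margin in each of the 3 genes.

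Ms4a7, a membrane-spanning protein of macrophages, was at 0, 0.297 and 0.299 CP10K in WT and 1.78, 1.56 and 2.11 CP10K in SIRT7 KO mice (3.35, limma adjusted p = 0.0641). The WT values of Ms4a7 rested on 0, 4 and 5 UMIs, and its log2 fold change ran from 1.32 to 3.81 over the alternatives. BC018473, an antisense transcript on chromosome 11 (116752167 to 116759373), on the chromosome of Sirt7, had 0 UMIs of 312421 in WT and 427 of 2395932 in SIRT7 KO mice. Its levels in SIRT7 KO mice were 2.15, 0.945 and 0.704 CP10K, from 372, 42 and 13 UMIs. Whether counting used strand is not given in the sources used here, so reads of the gene on the other strand cannot be told apart from it.

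Cd63, a lysosomal tetraspanin, was at 0, 0.330 and 0.660 CP10K in WT and 1.71, 1.33 and 2.63 CP10K in SIRT7 KO mice (2.97, limma adjusted p = 0.244). Mmp12, macrophage elastase, was at 0.494, 0 and 0.403 CP10K in WT and 1.17, 4.95 and 7.22 CP10K in SIRT7 KO mice (3.94, limma adjusted p = 0.272). Both had no overlap between the genotypes, but the WT values rested on 0, 2 and 11 UMIs for Cd63 and 1, 0 and 6 UMIs for Mmp12. Over the alternatives the log2 fold change ran from 1.40 to 3.76 for Cd63 and from 2.43 to 5.13 for Mmp12.

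**Figure D4:**
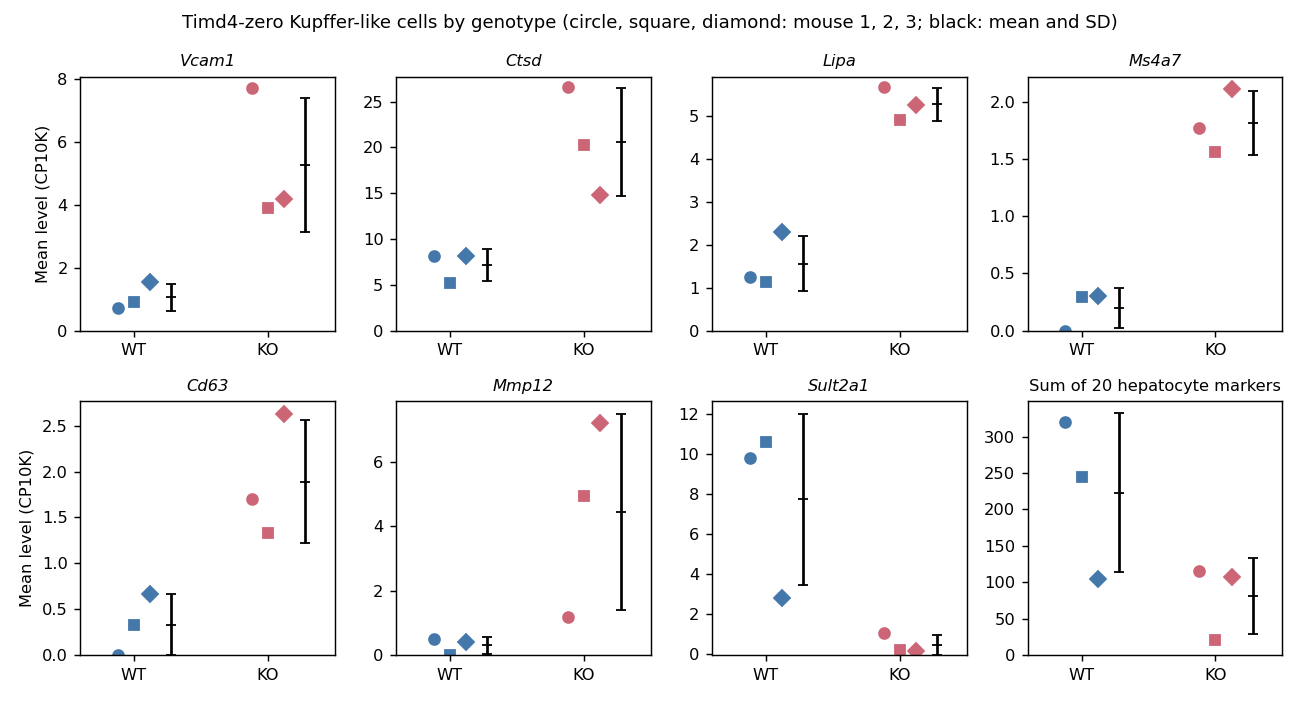
Mean level in CP10K in Timd4-zero cells of each WT and SIRT7 KO mouse for 7 genes and for the sum of 20 hepatocyte markers, with the mean and SD of 3 mice in black. The mice of the genotypes did not overlap for any of the 7 genes, which the rule for naming or the list of genes always shown picked, and SIRT7 KO mice 1 and 3 overlapped with WT mouse 3 in the hepatocyte sum.

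Lipid-associated macrophage genes leaned higher in SIRT7 KO mice as a list. Of 24 tested, 14 were higher and 0 lower at an unadjusted p under 0.05, where 3.54% and 3.2% of all genes were. Higher with no overlap were 13, where 7.5% of all genes were. The median log2 fold change was 1.22, against 0.15 for all genes. Trem2, Gpnmb and Cd9, chosen after their values were seen, are lipid-sensing and membrane proteins of that program. Trem2 was at 0, 0.275 and 0.312 CP10K in WT and 1.02, 0.509 and 0.882 CP10K in SIRT7 KO mice (2.19, limma adjusted p = 0.529). The WT values of Trem2 rested on 0, 2 and 6 UMIs, and its log2 fold change ran from 0.92 to 3.94 over the alternatives. Gpnmb had 0 UMIs in WT mice and was at 0.175, 0.366 and 1.40 CP10K in SIRT7 KO mice, from 30, 24 and 29 UMIs. Cd9 was at 0.476, 0.193 and 0.448 CP10K against 1.06, 1.09 and 1.42 CP10K (1.62, limma adjusted p = 0.414). Of the most abundant members, Ctsd and Ctsb did not overlap between the genotypes, and Ftl1 and Apoe did. Ftl1 averaged 94.3 ± 12.8 and 116 ± 10.4 CP10K (SD, n = 3). Apoe averaged 45.5 ± 3.82 CP10K in WT and 78.9 ± 57.2 CP10K in SIRT7 KO mice (SD, n = 3), which rested on SIRT7 KO mouse 1 at 145 CP10K.

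Of 30 lysosome genes, 11 were higher and 0 lower at that p, where 3.54% and 3.2% of all genes were, with a median of 0.48 against 0.15. Ctsb, a cysteine protease, averaged 26.5 ± 8.87 and 40.3 ± 3.69 CP10K in WT and SIRT7 KO mice (SD, n = 3, 0.67, limma adjusted p = 0.610). Psap, the precursor of the saposins, averaged 27.0 ± 4.89 and 39.3 ± 9.12 CP10K. Lgmn did not lean the same way, at 28.2 ± 14.4 and 22.9 ± 5.4 CP10K. Ctsd, Ctsb, Lipa and Cd63 belong to both lists, so the lists are not separate evidence.

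Of 25 interferon-stimulated genes, 8 were higher and 0 lower at that p, where 3.54% and 3.2% of all genes were. Higher with no overlap were 4, where 7.5% of all genes were, and the median was 0.89 against 0.15. Ifitm3, an antiviral membrane protein, was at 13.5, 14.1 and 14.8 CP10K in WT and 14.9, 23.3 and 24.5 CP10K in SIRT7 KO mice, so SIRT7 KO mouse 1 lay next to the WT mice. Irf7, the regulator of type I interferon, was at 0.846, 2.61 and 2.79 CP10K against 2.08, 6.76 and 6.37 CP10K, again with SIRT7 KO mouse 1 within the WT range. Bst2, tetherin, was at 3.49, 3.53 and 2.26 CP10K against 4.06, 7.68 and 5.80 CP10K.

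The remaining lists had 0 to 6 members higher at an unadjusted p under 0.05. At that p, 3.54% of all genes were higher and 3.2% lower, and the median of all genes was 0.15. Of 28 cholesterol and lipid genes 6 were higher and 2 lower, with a median of 0.28. Of 21 efferocytosis and scavenger receptor genes 5 were higher and 0 lower, with a median of 0.087, and of 17 iron and heme genes 3 were higher and 0 lower, with a median of 0.36. Of 33 Kupffer identity genes, 3 were higher and 1 lower, with a median of 0.14. Of 24 monocyte genes 4 were higher and 0 lower, with a median of 0.59. Of 20 cytokine and chemokine genes 2 were higher and 0 lower, and 1 of 14 complement and 1 of 24 immediate-early genes were lower. None of 13 MHC class II, 23 ER stress and integrated stress response, 25 cycling or 5 sirtuin genes had such a p. H2-Aa averaged 50.0 ± 9.43 and 53.3 ± 9.79 CP10K in WT and SIRT7 KO mice (SD, n = 3). Ccr2 averaged 3.46 ± 2.34 and 2.68 ± 1.31 CP10K and Folr2 2.56 ± 1.16 and 3.17 ± 1.61 CP10K (SD, n = 3), so the genes that differed from Timd4-positive cells overlapped between the genotypes.

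**Figure D5:**
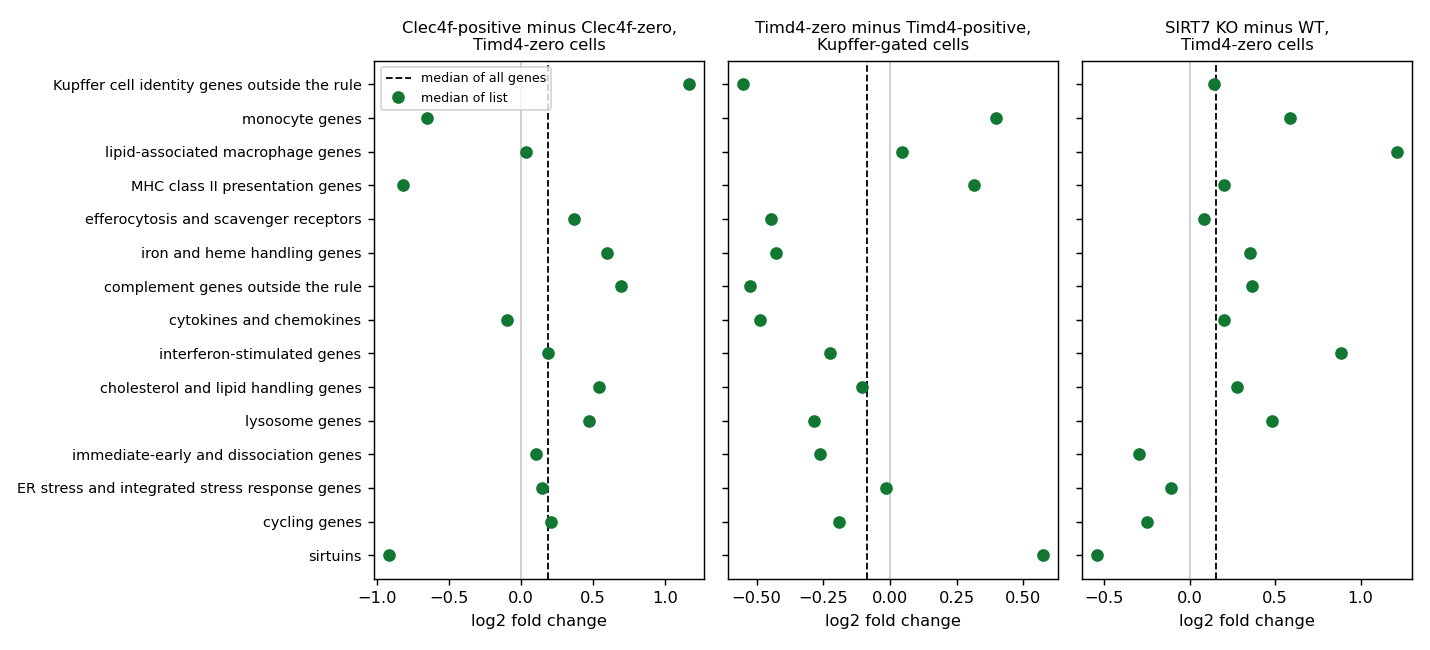
Median log2 fold change of each of 15 gene lists (points) and of all genes tested (dashed line) for cells with minus without Clec4f, Timd4-zero minus Timd4-positive cells, and SIRT7 KO minus WT. Kupffer identity genes lay above the dashed line in the first comparison (1.17) and below it in the second (-0.55), and lipid-associated macrophage genes had the highest median in the third (1.22).

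The 5 genes named on the lower side, Sult2a1, Dhrs4, Serpina1a, Sult2a8 and Cyp2c50, are genes of hepatocytes. Sult2a1, a sulfotransferase of steroids and bile acids, was at 9.81, 10.6 and 2.81 CP10K in Timd4-zero cells of WT mice and at 1.04, 0.192 and 0.157 CP10K in those of SIRT7 KO mice (-4.14 ± 0.64, SE, limma adjusted p = 0.0580). Serpina1a, an antitrypsin, was at 6.97, 3.299 and 2.07 CP10K against 0.798, 0.154 and 0.727 CP10K. The 20 hepatocyte markers, all of them detected, summed to 104 to 321 CP10K in WT and 21.0 to 115 CP10K in SIRT7 KO mice, and over all cells to 170 to 720 and 124 to 385 CP10K. Hepatocyte RNA free in the droplets and RNA of these cells cannot be told apart. Sult2a1, Sult2a8, Serpina1a and Cyp2c50 belong to multigene families whose members can share reads.

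The sum over 10 neutrophil markers was high in SIRT7 KO mice 1 and 2 and lowest of all mice in SIRT7 KO mouse 3. It was 0.195 to 1.98 CP10K in Timd4-zero cells of WT mice and 39.5, 17.3 and 0.125 CP10K in SIRT7 KO mice 1, 2 and 3. S100a8, chosen after its values were seen, was at 0, 0 and 0.157 CP10K in WT and 15.1, 6.95 and 0.0294 CP10K in SIRT7 KO mice, which overlapped. The part of neutrophil RNA in the genotype values was not tested. The 12 endothelial markers summed to 4.53 to 7.996 CP10K in WT and 2.71 to 3.39 CP10K in SIRT7 KO mice, and the 10 dendritic cell markers to 2.90 to 4.79 and 4.98 to 9.22 CP10K. Neither sum overlapped between the genotypes, and their part was not tested. Bst2, also a member of the interferon list, is 1 of the 10 dendritic cell markers. It made up most of their sum in every mouse, at 2.26 to 3.53 CP10K in WT and 4.06 to 7.68 CP10K in SIRT7 KO mice. The dendritic sum is thus mainly the level of Bst2 and is not separate from the interferon list.

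The genotype values of Vcam1, Ctsd, Lipa and BC018473 had the same direction in Timd4-positive cells. The means of Ms4a7, Cd63, Mmp12, Trem2, Gpnmb and Cd9 were also higher there in SIRT7 KO mice. Those of Sult2a1, Dhrs4, Serpina1a, Sult2a8, Cyp2c50 and Pcyt2 were lower. Cd63 averaged 0.0880 and 1.04 CP10K in WT and SIRT7 KO mice, Trem2 0.160 and 0.623 CP10K, and Sult2a1 3.98 and 0.574 CP10K. Cd9 and Dhrs4 overlapped between the genotypes there. Vcam1 averaged 2.15 ± 1.25 CP10K there in WT and 6.63 ± 1.51 CP10K in SIRT7 KO mice, Ctsd 11.1 ± 0.66 and 26.8 ± 3.43 CP10K, and Lipa 2.86 ± 0.726 and 6.52 ± 0.492 CP10K (SD, n = 3). BC018473 was at 0 in the 3 WT mice and at 2.37, 1.89 and 3.49 CP10K in SIRT7 KO mice. Both kinds of cells come from the same mice, so these values are not a separate replication. When the difference of the genotype change between Timd4-zero and Timd4-positive cells was tested, 0 of 10009 genes passed (limma; 501 had an unadjusted p under 0.05, 5.01%, of which 336 were higher, 3.36%, and voom weights also gave 0). For Vcam1 the difference of the log2 fold changes was 0.52 ± 0.54, for Ctsd 0.24 ± 0.22 and for Lipa 0.59 ± 0.32 (SE, limma adjusted p = 0.883, 0.871 and 0.862).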

How the data were processed

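Reads of 6 10x Genomics libraries were aligned by the authors with Cell Ranger 6.0.0 to mm10, per the submitters' processing notes. Per the study's methods, the authors kept cells with at least 500 genes and at most 5% mitochondrial genes, brought every cell to a total of 10000 and log-transformed it after adding 1. The deposited values are the natural log of counts per 10000 plus 1 for 16623 genes in 11610 cells, and the deposited table holds no cell types. After the natural log was undone, every cell summed to 10000 and all 12961041 values above 0 were whole UMIs within 0.02. The genotype and mouse were read from the barcode ending, and 0 cells were unmapped.

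Cells were gated by the transcripts given above, and the 12 gate and exclusion transcripts were left out of all tests. Scrublet (scanpy 1.11.5) marked 40 cells (0.345%), 4 of them Timd4-zero, too few to have worked, so none was removed and doublets may remain. Cells of each mouse were averaged in CP10K and the averages taken as log2 after adding 0.05, for genes with a mean of at least 0.05 and mice with 10 or more cells, and fitted with limma 3.58.1 (R 4.3.3, statmod 1.5.0; trend and robust, two-sided, Benjamini-Hochberg over all genes). Because cells were averaged, the mouse is the replicate. The hurdle model used in the study takes cells as replicates and was not used. Shares were compared with exact permutation tests. Intervals and floors (3 UMIs) cover counting error only. On simulated data with 200 genes changed by 3 or 1.5 on the log2 scale, limma found 100% and 99% in the comparison with Timd4-positive cells, 97% and 71% in the Clec4f comparison and 82% and 30% for the difference of the genotype change. It also called 10, 1 and 0 unchanged genes there and 1 between the genotypes, and 0 in each comparison when nothing was changed. Only genes of at least 0.5 CP10K were changed. The scatter between mice and cell groups was set in advance and not taken from these mice. Recovery in the real data can therefore be lower, and the simulation does not show that few changes were missed.

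Named genes were those past the threshold with the largest change (12 in each direction, mean of at least 0.5 CP10K, same sign in every mouse or no overlap), otherwise the 5 with the smallest p, list members past the threshold and the 4 most abundant of each list, with Sirt7, Pcyt2, Cd63, Mmp12 and BC018473 always given. Not every gene the rule allows is described. The cells, lists and rule were chosen with earlier results of these data known. Replicate numbers do not pair the mice: deviations of same-numbered mice correlated at 0.016, -0.036 and -0.15 over 3371 genes. Gene positions are of GENCODE vM21 on GRCm38. Some genes of the lists are counted but not reported by name here.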

Additional observations from a re-analysis of the deposited data

Results flagged for a closer look

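In the comparison of Timd4-zero cells with and without Clec4f, the difference within SIRT7 KO mouse 3 lay far from those of the other 3 mice for 2 genes of 30 groups of values examined. Chance flags about 1 in 20 groups. Gpr141 had a log2 difference of -4.53 in that mouse and of -2.07 to -1.69 in the others. Cyp4f18 had -4.95 there and -1.60 to -1.10 in the others. Both genes were at 0 CP10K in the cells with Clec4f of SIRT7 KO mouse 3, of which there were 13.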

How the results depend on the processing

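The count of genes past the threshold between genotypes in Timd4-zero cells was 0, and it was 14 with 0.5 CP10K added, 6 with voom weights, 47 with cells thinned to 1000 UMIs, 3 without the cells marked by scrublet, 3 in cells with Clec4f, 3 when hepatocyte markers were left out of the scaling (added after the data had been seen) and 0 to 84 when 1 mouse was left out, the highest without SIRT7 KO mouse 1 (33 without SIRT7 KO mouse 2 and 10 without SIRT7 KO mouse 3). The replicate block gave 90 genes (22 higher, 68 lower) for the genotypes and 3 for the difference of the genotype change, where the other alternatives gave 0; it moved no share, and as no mouse correlated best with its own number the numbers do not pair the mice. The comparison with Timd4-positive cells gave 3 genes, 19 with mice of 20 or more cells, 155 with voom weights (116 higher, 39 lower), 0 with no filter, 0 thinned, 0 in cells with Clec4f and 0 to 17 with 1 mouse left out, 1 without WT mouse 1 or 2. The Clec4f comparison gave 270 genes, 80 with no filter, 418 with voom weights, 47 thinned and 114 to 316 with 1 mouse left out. Of the values of named genes, 371 of 454 kept direction and side of the threshold between genotypes, 77 passed it and 6 reversed. With 1 mouse left out, the log2 value of Sirt7 ranged from -2.19 to 0.37 (reversed without WT mouse 2) and that of Lgmn from -0.67 to 0.19 (reversed without WT mouse 2, without WT mouse 3 at 0.013 and without SIRT7 KO mouse 3 at 0.0093). Lgmn was also reversed with voom weights at 0.022, and Ifitm3 at -0.033 in cells with Clec4f, and the cause was not tested. In the Clec4f comparison 195 of 984 values lost the threshold, in that with Timd4-positive cells 21 of 96, and none reversed. With 18 and 19 cells in WT mice 1 and 2, the floor of 3 UMIs was 0.483 and 0.577 CP10K there.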
